A study of Mus musculus with 13 samples.

Results

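Heat shock proteins and chaperones are described here through 10 genes, Hspa1a, Hspa1b, Hspa4, Hspa5, Hspa8, Hsp90aa1, Hsp90ab1, Hspb1, Hspd1 and Dnajb1. They were taken by symbol, and all 10 were found among the 55291 gene symbols of the count tables. RNA was sequenced from the CA1 region of mouse organotypic entorhino-hippocampal tissue cultures, with 1 isolated region in each of 13 libraries. All cultures came from wildtype C57BL/6 mice of both sexes, were prepared on postnatal day 4 to 5 and matured for at least 18 days in vitro. The groups were 5 non-lesioned control cultures, 4 cultures in which a Schaffer collateral lesion (SCL) had severed the CA3 axons that end in CA1, and 4 cultures in which an entorhinal cortex lesion (ECL) had severed the entorhinal input. Tissue was isolated 3 days after the lesion, so that the groups show a single time point in explanted tissue. The sample titles and the study's methods name CA1, while the protocol text kept with the samples speaks of the dentate gyrus. All 8 CA1 pyramidal cell markers were detected, with summed normalized counts of 10638 to 16866 per library. All 7 CA3 markers and all 8 dentate granule cell markers were detected too.

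Molecular chaperones bind proteins that are unfolded or still folding and keep them from aggregating. Hsp70 proteins hold and release such clients in cycles of ATP hydrolysis, J-domain proteins deliver the clients and start the cycle, nucleotide exchange factors end it, and Hsp90 completes the folding of many kinases and receptors. Small heat shock proteins hold clients without ATP. When unfolded proteins accumulate in the cytosol, heat shock factor 1 binds heat shock elements in promoters and induces genes such as Hspa1a, Hspa1b, Hspb1 and Dnajb1, while unfolded proteins in the endoplasmic reticulum (ER) induce Hspa5 through ER stress elements. Neurons express the constitutive Hsp70 and Hsp90 genes at high levels and are known for a high threshold of induction of the heat-inducible Hsp70 genes.

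The members lie on 8 chromosomes of GRCm38, and 3 of them lie on chromosome 17. Hspa1b (34956436 to 34959238) and Hspa1a (34969190 to 34972156) are neighbours there, are both transcribed from the minus strand and encode nearly the same inducible Hsp70. Their sequences upstream of the start are shown because Hspa1b gave the largest change of the members. Hspa1a, with nearly the same sequence, did not pass the test after SCL and was not tested after ECL. Below are the 250 bases before the start of each, from RefSeq on GRCm38.p6, 5′ to 3′ on the minus strand. The capitals mark the 8-letter core GAANNTTC of the heat shock element.
Hspa1a, chr17:34972157-34972406: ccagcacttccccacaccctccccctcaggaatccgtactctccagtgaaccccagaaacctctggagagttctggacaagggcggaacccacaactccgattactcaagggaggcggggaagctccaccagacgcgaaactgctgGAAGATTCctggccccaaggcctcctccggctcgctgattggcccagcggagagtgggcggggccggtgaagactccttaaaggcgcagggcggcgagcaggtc
Hspa1b, chr17:34959239-34959488: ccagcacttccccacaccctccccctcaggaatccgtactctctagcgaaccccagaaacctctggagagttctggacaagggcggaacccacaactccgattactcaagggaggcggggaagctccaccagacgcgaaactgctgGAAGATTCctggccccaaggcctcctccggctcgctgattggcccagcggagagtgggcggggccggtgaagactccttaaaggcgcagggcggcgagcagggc

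The upstream sequences were identical at 98.8% of the 250 positions. Counted from 1 at the 5′ end and with the base of Hspa1a written before that of Hspa1b, the differences were C44T, T47C and T249G. The marked core sits at the same place in both, from 104 to 97 bases before the start, outside these positions. Hspa5 is shown by the ER stress element (CCAAT and CCACG with 9 bases between them) that its promoter holds from 65 to 47 bases before the start, in capitals between 5 flanking bases on each side, on the plus strand of GRCm38.p6.
Hspa5, chr2:34772020-34772048: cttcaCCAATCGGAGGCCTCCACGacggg

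RefSeq windows of 300 bases, from 250 before to 50 after the start, were found for 7 of the 10 members, namely Hspa1a, Hspa1b, Hspa4, Hspa5, Hspb1, Hspd1 and Dnajb1. Both strands were searched. The ER stress element was in 0.119% of all 32851 windows and, among the members, in that of Hspa5. The longer heat shock element, in which 3 units of GAA and TTC alternate with 2 bases between them, beginning with either unit, was in 0.603% of all windows and, among the members, in 1 window of Hspd1, where an element of each form overlaps. The 8-letter core is part of both forms and its own reverse complement, was added after the longer form had proved rare, and was in 7.86% of all windows. It was in the windows of Hspa1a, Hspa1b, Hspd1 and Hspb1, which holds it at 2 places. A match describes letters in a window and does not show binding.

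Total counts per library were 14371152 to 21092612 in controls, 16405517 to 56786613 after SCL and 20210165 to 46449937 after ECL. The 10 members together held 0.468% to 0.533% of all counts in controls, 0.373% to 0.432% after SCL and 0.433% to 0.506% after ECL. Mitochondrially encoded genes took 6.07% to 7.96% of the counts in controls and 3.42% to 5.38% after the lesions. The groups also differed in cell type markers. The summed normalized counts of 15 microglia markers were 28399 to 32423 in controls, 51710 to 92277 after SCL and 51295 to 70833 after ECL, with no marker at 0, and 14 of the 15 rose after SCL and 10 after ECL. Sums of 11 endothelial markers were 985 to 1406 in controls, 528 to 807 after SCL and 548 to 797 after ECL. Sums of 8 dentate granule cell markers were 2418 to 4356 in controls, 1611 to 2001 after SCL and 1384 to 1822 after ECL, and those of 7 CA3 markers were 9027 to 11912, 6015 to 9611 and 5910 to 8632. The dentate sums did not overlap between controls and either lesion, and the CA3 sums did not overlap between controls and ECL. Such sums follow the most abundant markers. Only 4 of 7 CA3, 3 of 8 dentate and 2 of 11 endothelial markers had enough counts to be tested, and 1 of each list fell after each lesion. Sums of neuron, CA1, astrocyte, oligodendrocyte lineage, and mural and fibroblast markers overlapped between controls and both lesions. The part of the marker differences in the results was not tested. Since tissue was measured in bulk, fewer cells of a type and less RNA per cell cannot be told apart.

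In control cultures, the levels of both cytosolic Hsp90 genes stood highest and those of Hspa1a and Hspa1b lowest. Normalized counts are scaled between libraries by TMM and, to compare genes, divided by exon length. On this scale Hsp90ab1, the constitutive cytosolic Hsp90, had the highest level of the members with 20137 ± 1130 normalized counts per kb (SD, n = 5). Hsp90aa1, the more inducible cytosolic Hsp90, followed with 9011 ± 1376, then Hspa5, the ER Hsp70 also called BiP, with 3839 ± 596, and Hspa8, the constitutive cytosolic Hsp70, with 2670.0 ± 200 (SD, n = 5). Each of these differed from the next without overlap between libraries, and Hspa8 also lay above Hspd1.

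Hspd1, the mitochondrial chaperonin Hsp60, had a control level of 1584 ± 184 normalized counts per kb, and Hspb1, a small heat shock protein, had 938 ± 264 (SD, n = 5). Hspa4, an Hsp110 that exchanges nucleotides on Hsp70, had 595 ± 132, and the J-domain protein Dnajb1 had 358 ± 64.8. Hspb1 and Hspa4 overlapped between libraries, as did Hspa4 and Dnajb1. Hspa1b with 119 ± 26.5 and Hspa1a with 72.9 ± 17.5 normalized counts per kb were lowest and overlapped with each other. Among 11492 genes ranked by control level per kb, Hsp90ab1 was at percentile 99.6, Hspa8 at 95.2 and Hspa1b at 35.3, with Hspa1a below it. The upper end of this order held after the lesions for Hsp90ab1 and Hsp90aa1. At the lower end Hspa1a had the higher mean after both lesions, 48.1 (33.2 to 74.3) against 31.2 (18.9 to 54.0) for Hspa1b after SCL and 50.0 (34.6 to 71.3) against 37.0 (24.5 to 64.9) after ECL, with overlapping libraries. The plot of levels per kb shows this order.

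**Figure D1:**
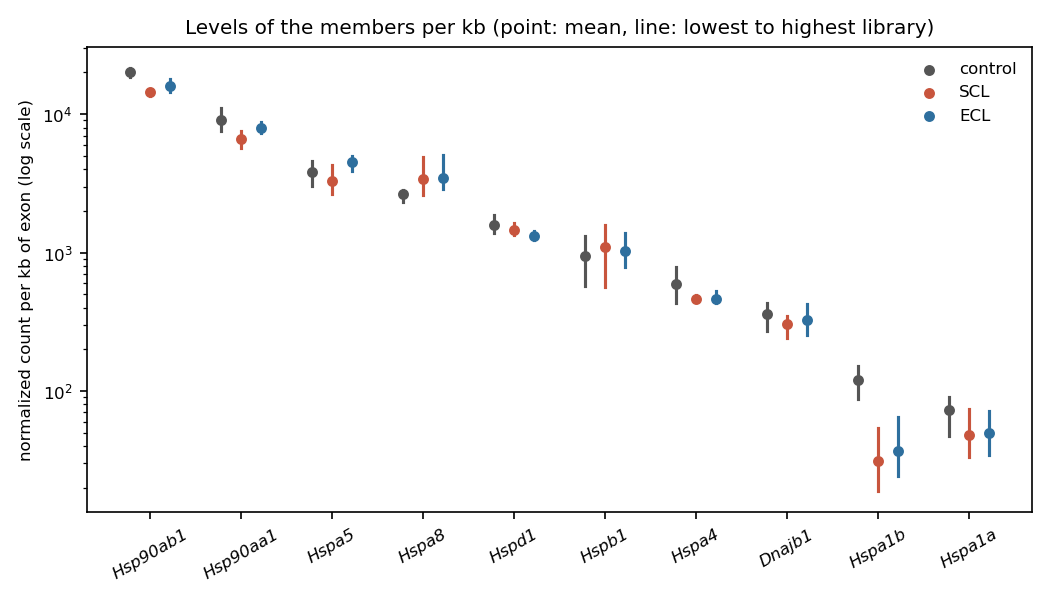
Normalized counts per kb of exon on a log scale for the 10 members, ordered by control level, in control (grey, n = 5), SCL (red, n = 4) and ECL (blue, n = 4) libraries. Points are means and lines run from the lowest to the highest library. Hsp90ab1 stands highest at 20137 in controls, and Hspa1b and Hspa1a stand lowest, with the lesioned libraries of Hspa1b below all controls.

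Each lesion was compared with the controls to ask which genes CA1 tissue expresses differently 3 days after it has lost that input. A gene is said to have risen or fallen where edgeR's quasi-likelihood test gave a Benjamini-Hochberg adjusted p under 0.05 over all genes tested. After SCL all 10 members were tested, and 2 fell, Hspa1b and Hsp90ab1, while none rose. Of all 11438 genes tested after SCL, 24.9% were called, 13.1% higher and 11.8% lower. An unadjusted p under 0.05 was found for 4 of the 10 members, against 38.8% of all genes. After ECL 9 members were tested, and 1 fell, Hspa1b, while none rose. Of all 11212 genes tested after ECL, 27.8% were called, 15.2% higher and 12.5% lower. An unadjusted p under 0.05 was found for 3 of the 9, against 40.3% of all genes.

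The median log2 fold change of the members was -0.29 after SCL, beside 0.01 over all genes tested, and -0.17 after ECL, beside -0.01. The values were negative in 8 of 10 members after SCL and in 6 of 9 after ECL, although with TMM factors from all symbols the sign turned for Hspd1 after SCL (0.08) and for Hsp90aa1 (0.03) and Dnajb1 (0.07) after ECL. Both comparisons use the same 5 controls. The number of members called after SCL was 1 to 3 when single libraries were left out, and it was 1 without SCL replicate 2, and the number after ECL was 1 or 2, with 2 without control replicate 3. With TMM factors from all symbols the median log2 fold change of all genes tested shifted to 0.21 after SCL and 0.18 after ECL, and the share of higher genes among those called went from 52.8% to 80.8% and from 54.8% to 77.8%. Fold changes below are relative to the genes tested.

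**Figure D2:**
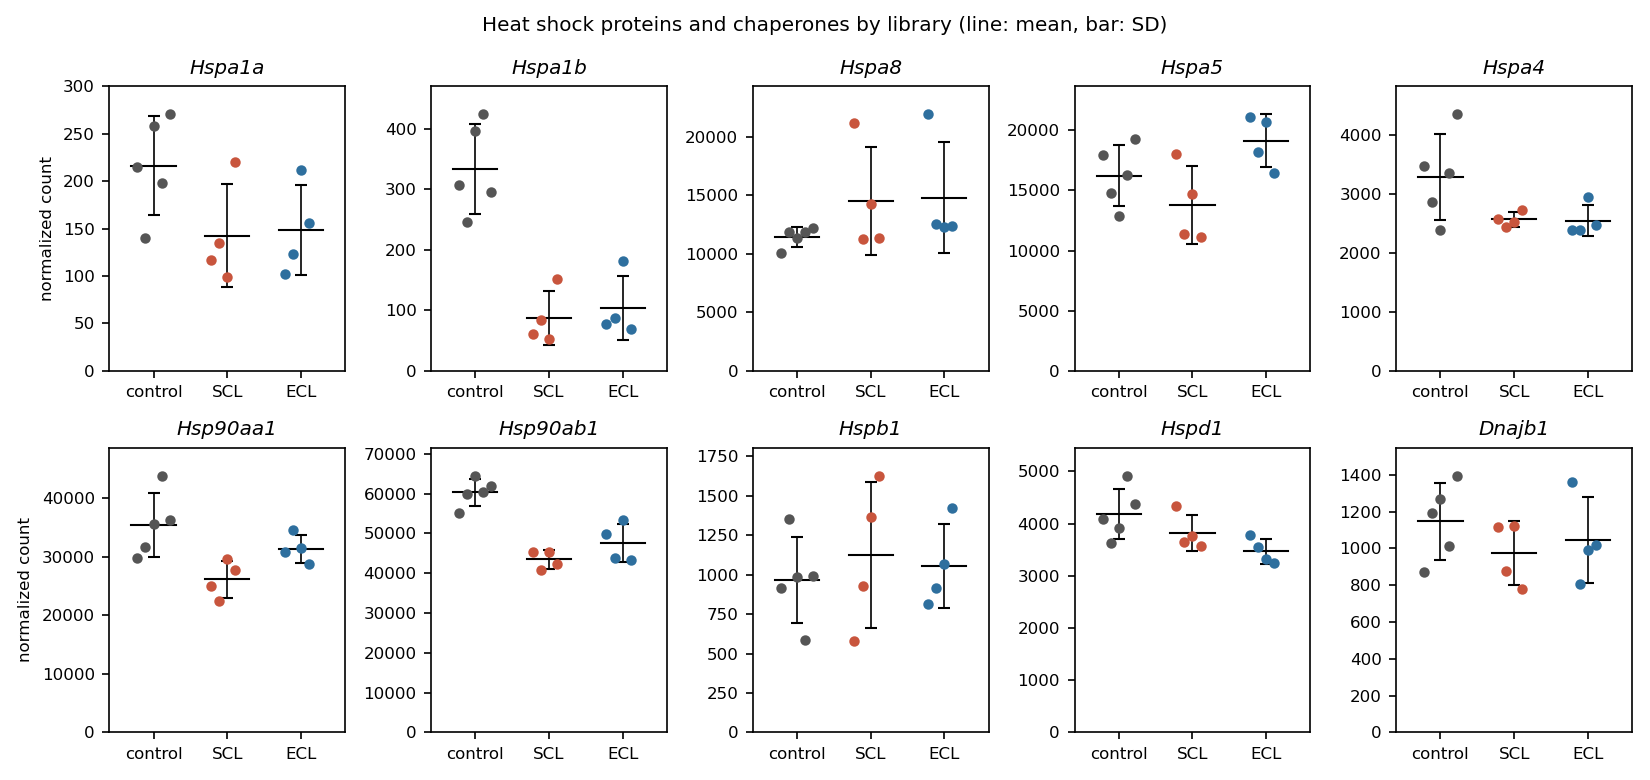
Normalized counts of each member in every library, with axes that start at 0, in control (grey, n = 5), SCL (red, n = 4) and ECL (blue, n = 4) libraries. Lines are means and bars are SD. The Hspa1b points after either lesion, 53.1 to 182, lie below all controls, and in Hspa8 the first SCL and the first ECL library stand above the other libraries of their groups.

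Hspa1b showed the largest change of the members. The 5 control libraries held 307, 246, 397, 424 and 296 normalized counts. The 4 SCL libraries held 61.3, 84.3, 53.1 and 151, and the 4 ECL libraries held 76.9, 87.4, 182 and 68.6. Every lesioned library was below every control, with SCL replicate 4 and ECL replicate 3 nearest to them. Controls averaged 334 ± 74.2 (SD, n = 5), SCL libraries 87.5 ± 44.6 (n = 4) and ECL libraries 104 ± 52.7 (n = 4).

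The log2 fold change of Hspa1b was -1.95 after SCL (SE 0.33, quasi-likelihood test of edgeR, adjusted p = 0.00254), which is 0.259 of the control level with a 95% confidence interval of 0.151 to 0.444. After ECL it was -1.69 (SE 0.32, adjusted p = 0.00192, same edgeR test), or 0.311 of the control level (0.185 to 0.523). Hspa1b was called lower in all 21 alternatives computed for each lesion, the summed feature of both copies described below among them, with log2 fold changes of -2.33 to -1.27 after SCL and -2.09 to -1.12 after ECL.

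Hspa1a, whose protein is nearly the same, had 215, 139.9, 258, 199 and 270.4 normalized counts in controls. It had 117, 135, 98.5 and 220.3 after SCL and 103, 123, 212 and 156 after ECL. The groups overlapped, since control replicate 2 lay among the lesioned libraries and SCL replicate 4 and ECL replicate 3 lay among the controls. After SCL the log2 fold change of Hspa1a was -0.61 (SE 0.29, adjusted p = 0.144, edgeR), and without SCL replicate 4 it was -0.88 (edgeR, adjusted p = 0.0460).

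In the ECL comparison the mean of Hspa1a, 146 on the scale of that fit, was under the minimum of 150, so that it was not tested there. With a mean minimum of 10 its log2 fold change after ECL was -0.46 (adjusted p = 0.268, edgeR). When the counts of Hspa1a and Hspa1b were summed into 1 feature, edgeR gave log2 fold changes of -1.27 in the SCL comparison, with an adjusted p of 0.00693, and -1.12 in the ECL comparison, with an adjusted p of 0.00612.

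The balance of the copies moved within the libraries. Hspa1b over Hspa1a was 1.43, 1.76, 1.54, 2.13 and 1.10 in the control libraries, as a ratio of raw counts that needs no scaling. It was 0.525, 0.623, 0.538 and 0.688 after SCL and 0.750, 0.709, 0.860 and 0.439 after ECL. Hspa1b thus had more counts than Hspa1a in every control and fewer in every lesioned library. The log2 difference was -1.40 after SCL and -1.22 after ECL (two-sided exact permutation tests, p = 0.00794 each, adjusted p = 0.0119 over 3 comparisons), where 0.00794 is the smallest p that 5 against 4 libraries allow. Between the lesions it was 0.18 (exact permutation test, p = 0.429). This ratio was chosen after the values of both genes had been seen.

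Of the 100-base stretches of Hspa1b, 50.1% occur in no other annotated transcript, and 49.9% occur in Hspa1a. Of those of Hspa1a, 43.5% occur in no other transcript. How the authors' counting divided reads from shared stretches is not given in the sources used here, so that the levels of each copy alone are uncertain. Moreover, 19.0% of the exon bases of Hspa1a overlap Gm20481 on the other strand, and the counting did not use strand. Gm20481 had 0 counts in all 13 libraries.

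Relative to Hspa8, the constitutive Hsp70, the inducible pair was lower after both lesions. The ratio of Hspa1a and Hspa1b counts to Hspa8 counts was 0.0519, 0.0325, 0.0577, 0.0524 and 0.0463 in controls. It was 0.00842, 0.0194, 0.0106 and 0.0326 after SCL and 0.00818, 0.0168, 0.0319 and 0.0181 after ECL. The ECL libraries lay below all controls, while SCL replicate 4 overlapped with control replicate 2. The log2 difference was -1.61 after SCL (exact permutation test, two-sided, p = 0.0159) and -1.49 after ECL (exact permutation test, p = 0.00794), with an adjusted p of 0.0476 for both over 9 ratio tests by permutation.

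**Figure D3:**
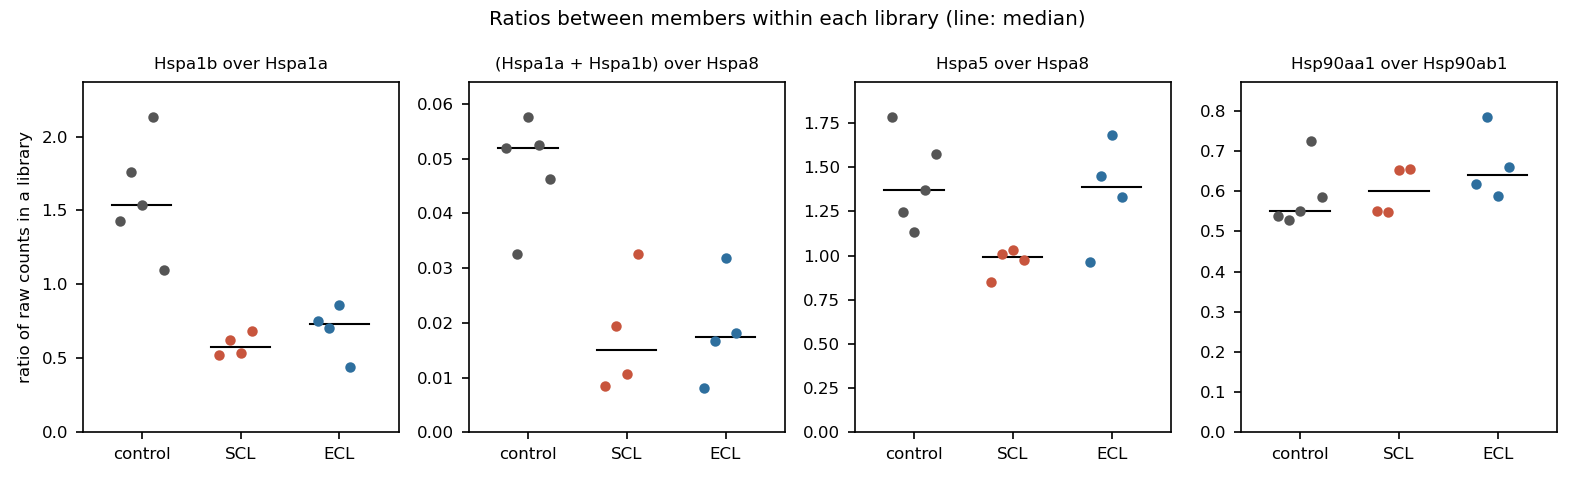
Ratios of raw counts between members within each library, for control (grey, n = 5), SCL (red, n = 4) and ECL (blue, n = 4) libraries, with axes from 0 and lines at the medians. Hspa1b over Hspa1a is above 1 in all controls, with 1.10 as the lowest, and below 1 in all lesioned libraries, with 0.860 as the highest.

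Hspa8 itself, which also uncoats clathrin-coated vesicles, had 10054, 11872, 11368, 11873 and 12252 normalized counts in controls. It had 21176, 11291, 14266 and 11398 after SCL and 21926, 12570.2, 12326 and 12392 after ECL. SCL replicate 1 and ECL replicate 1 stood far above all other libraries. The log2 fold change was 0.34 after SCL (SE 0.18, adjusted p = 0.190, edgeR) and 0.37 after ECL (SE 0.18, adjusted p = 0.134, edgeR), and neither passed the test. Without SCL replicate 1 it was 0.10, and without ECL replicate 1 it was 0.13. Hspa8 was called higher with no filter, at 0.55 after SCL and 0.58 after ECL (edgeR, adjusted p = 0.0250 and 0.0141), and after ECL also with TMM over all symbols, at 0.58 (edgeR, adjusted p = 0.0493). All ECL libraries lay above all controls, the other 3 by a narrow margin. Hspa8 shares 26.3% of its 100-base stretches with each of Gm15459 and Gm26825. No counts were given for Gm26825.

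Hspa5 had 17954, 14784, 12901, 16265 and 19272 normalized counts in controls. It had 18024, 11377, 14675 and 11130.0 after SCL and 21112, 18208, 20726 and 16488 after ECL. The ECL libraries were the highest on average and the SCL libraries the lowest, with overlap between all groups. The log2 fold change was -0.23 after SCL (SE 0.18, adjusted p = 0.354, edgeR) and 0.25 after ECL (SE 0.15, adjusted p = 0.245, edgeR). All 100-base stretches of Hspa5 were its own, and the same held for Hspa4, Hsp90ab1 and Dnajb1.

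Set against Hspa8 in the same library, Hspa5 was lower after SCL. Hspa5 over Hspa8 was 1.79, 1.25, 1.13, 1.37 and 1.57 in controls and 0.851, 1.01, 1.03 and 0.977 after SCL, without overlap. The log2 difference was -0.54 (exact permutation test, 2-sided, p = 0.0159), with an adjusted p of 0.0476 over the 9 ratio tests. After ECL the ratios were 0.963, 1.45, 1.68 and 1.33, and the log2 difference was -0.08 (exact permutation test, p = 0.698).

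Hspa4 had 2395 to 4347 normalized counts in controls, 2439 to 2735 after SCL and 2384 to 2942 after ECL. The lesioned libraries lay within the range of the controls or just below its lower end, and their spread was narrower. Its log2 fold change was -0.35 after SCL (SE 0.15, adjusted p = 0.109, edgeR) and -0.36 after ECL (SE 0.17, adjusted p = 0.124, edgeR). Without control replicate 3, the lowest control, it passed the test in both comparisons, at -0.44 (adjusted p = 0.0442, edgeR) and -0.46 (adjusted p = 0.0493, edgeR).

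Hsp90ab1, the most highly expressed member, had 55211, 59945, 64444, 60385 and 61964 normalized counts in controls. It had 45463, 40805, 45448 and 42352 after SCL and 49942, 43946, 53383 and 43386 after ECL. Every lesioned library lay below every control. The log2 fold change was -0.47 after SCL (SE 0.14, adjusted p = 0.0235, edgeR), or 0.721 of the control level (95% confidence interval 0.577 to 0.899). After ECL it was -0.33 (SE 0.14, adjusted p = 0.0909, edgeR), which did not pass, whereas DESeq2 (-0.33, adjusted p = 0.0356) and edgeR with an offset for length and GC content (-0.52, adjusted p = 0.00551) called it. The call after SCL was lost in 7 of 20 alternatives, among them TMM over all symbols with -0.27 (adjusted p = 0.193, edgeR) and leaving out SCL replicate 2 with -0.44 (adjusted p = 0.0760, edgeR).

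Hsp90aa1 had 29751, 31695, 35559, 43799 and 36312 normalized counts in controls. It had 25007, 22383, 29636 and 27728 after SCL and 30855, 34528, 31421 and 28700.2 after ECL. The SCL libraries lay below all controls, the highest of them by a small margin, and the ECL libraries overlapped with the controls. The log2 fold change was -0.43 after SCL (SE 0.15, adjusted p = 0.0558, edgeR) and -0.17 after ECL (SE 0.15, adjusted p = 0.432, edgeR). With DESeq2 the SCL value passed the test at -0.44 (adjusted p = 0.0196).

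Of the 100-base stretches of Hsp90aa1, 31.6% also occur in Gm12346, which itself had 7549 to 17931 normalized counts and fell after SCL by 0.59 on the log2 scale (edgeR, adjusted p = 0.0253). Hsp90aa1 over Hsp90ab1 was 0.529 to 0.725 in controls, 0.549 to 0.655 after SCL and 0.589 to 0.786 after ECL. The log2 difference was 0.04 after SCL (exact permutation test, p = 0.714) and 0.18 after ECL (exact permutation test, p = 0.198). Over genes tested, 3 members did not overlap between SCL and control libraries, Hspa1b, Hsp90ab1 and Hsp90aa1, against 23.7% of all genes. Between ECL and control libraries, 3 did not overlap, Hspa1b, Hsp90ab1 and Hspa8, against 25.1%. The members were compared on the scale of all 13 libraries, and all genes on the scale of each fit. Hsp90aa1 and Hspa8 were free of overlap only by a small margin, so these counts of members may differ on the scale of the fit.

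The remaining members showed no change that passed the test. Hspb1 had 587 to 1353 normalized counts in controls, 581 to 1626 after SCL and 816 to 1424 after ECL. Its log2 fold change was 0.21 after SCL (95% confidence interval -0.46 to 0.88) and 0.13 after ECL (-0.40 to 0.67). Of its 100-base stretches, 44.0% also occur in Hsp25-ps1, which had 39.3 to 97.8 normalized counts.

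Hspd1 had 3637 to 4912 normalized counts in controls, 3563 to 4330 after SCL and 3238 to 3773 after ECL. Its log2 fold change was -0.13 after SCL (95% confidence interval -0.42 to 0.17) and -0.26 after ECL (-0.57 to 0.04). Hspe1, its partner Hsp10, which is transcribed from the other strand of the same promoter region, was not called by edgeR either, at 0.24 in the SCL comparison with an adjusted p of 0.317 and 0.25 in the ECL comparison with an adjusted p of 0.282. Dnajb1 had 870.0 to 1393 normalized counts in controls, 779 to 1122 after SCL and 807 to 1363 after ECL. Its log2 fold change was -0.24 after SCL (95% confidence interval -0.66 to 0.19) and -0.12 after ECL (-0.56 to 0.31).

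**Figure D4:**
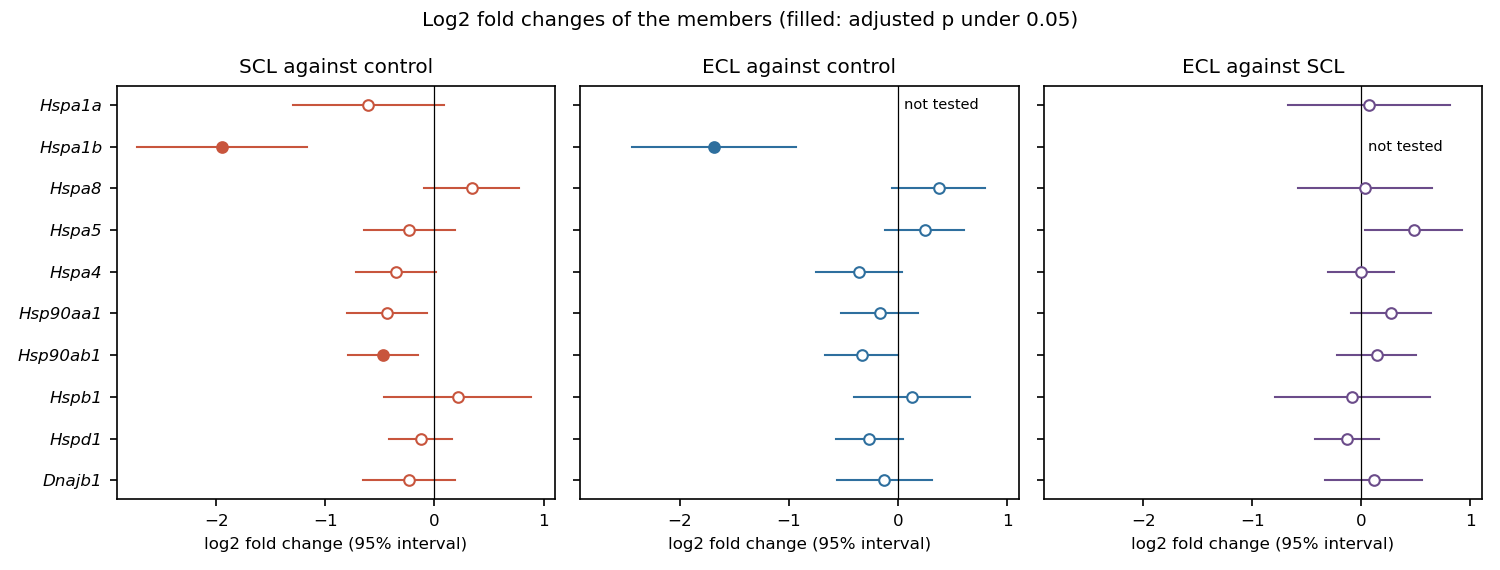
Log2 fold changes of the members with 95% confidence intervals derived from edgeR's fold changes and F statistics, for SCL against control, ECL against control and ECL against SCL. Their degrees of freedom count only the libraries of each comparison, whereas edgeR's test also borrows from other genes. The intervals, also those in the text, are therefore wider than that test implies. For Hspa4 after SCL the interval is -0.72 to 0.01, at an unadjusted p of 0.0398 by edgeR. Filled points have an adjusted p under 0.05, and members under the mean minimum are marked as not tested. Hspa1b is filled in both lesion panels at -1.95 and -1.69, Hsp90ab1 in the SCL panel at -0.47, and no point is filled between the lesions.

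ECL and SCL were also compared directly, to ask whether the lesioned pathway makes a difference. The column headings give 1 male and 3 females for SCL, 3 males and 1 female for ECL and 2 males and 3 females for controls, so that lesion and sex are largely confounded here. With sex as a term, the ECL against SCL log2 fold change went from 0.07 to -0.31 for Hspa1a and from 0.03 to 0.31 for Hspa8, and no member was called. Of 9 members tested, none was called, and 0% of all 12232 genes were called by edgeR. An unadjusted p under 0.05 was found for 1 member, Hspa5, against 7.33% of all genes. On the scale of all 13 libraries no member tested was free of overlap, against 3.74% of all genes on the scale of the fit. DESeq2 called 62 of the 12232 genes and no member. Hspa5 was higher after ECL with a log2 fold change of 0.48 (95% confidence interval 0.04 to 0.92, adjusted p = 0.627, edgeR). The other 8 tested members had log2 fold changes of -0.13 to 0.27. The difference between the lesions for Hsp90ab1 was 0.14 (-0.22 to 0.51), so that its call after SCL alone does not show that the lesions differ. Hspa1b was under the mean minimum here, and with a minimum of 10 its log2 fold change was 0.26 (adjusted p = 0.921, edgeR).

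Around the group means, the correlation between members from library to library differed widely from pair to pair. Correlations were taken over the deviations of the 13 libraries, which share depth and scaling, and are given as a description. Over the 45 pairs of members the median Pearson r was 0.09 and the range -0.86 to 0.78. Hspa1a and Hspa1b, which share sequence, gave the highest value of 0.78, followed by Hspa8 with Dnajb1 at 0.74. Hspb1 with Hspd1 gave the lowest. Among about 11155 genes, the gene most like each member in these deviations was Setd3 for Hspa1a (r = 0.93), Slk for Hspa1b (0.91), Gm6789 for Hspa4 (0.89), Pafah1b2 for Hspa5 (0.91) and Gm15459 for Hspa8 (0.94). It was 9330121K16Rik for Hsp90aa1 (0.92), Gm12709 for Hsp90ab1 (0.89), Bicc1 for Hspb1 (0.95), Nckap1 for Hspd1 (0.97) and Ifngr2 for Dnajb1 (0.94). Each of these values is the highest of about 11155 over only 13 libraries. Likewise, 0.78 and -0.86 are the extremes of 45 pairs. A value picked in this way can be far from 0 among unrelated genes. How far was not tested, so no link between genes is drawn from these values.

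The other genes of the chaperone network were read from 9 lists made from gene names, which hold 115 genes. Of the 99 tested after SCL, 15 rose and 11 fell, 26.3% in all, and of the 99 tested after ECL, 22 rose and 14 fell, 36.4% in all, beside 24.9% and 27.8% of all genes. The median log2 fold change was 0.06 after SCL and 0.04 after ECL.

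Among the other Hsp70 and Hsp110 genes, 7 of 10 were tested, and 1 rose and 1 fell after SCL, 1 rose and 3 fell after ECL. Hspa2, an Hsp70 first known from testis, fell by 1.49 on the log2 scale after SCL and fell by 1.83 after ECL (edgeR, adjusted p = 0.00243 and 0.000123). Hspa14, a ribosome-associated Hsp70, rose by 0.70 after SCL and 0.61 after ECL. SCL replicate 1 and ECL replicate 1 held its highest values, and without SCL replicate 1 the former was 0.38 (adjusted p = 0.126, edgeR). Hsph1, an Hsp110, fell after ECL by 0.49 (edgeR, adjusted p = 0.0449), but 14 of 20 alternatives did not call it. Of the 2 other Hsp90 genes, Hsp90b1, the Hsp90 of the ER, fell by 0.68 after SCL and 0.55 after ECL.

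The small heat shock proteins that were called rose. Of 9 genes, 4 were tested beside Hspb1, and 2 rose after SCL and 3 after ECL, with none lower and medians of 0.81 and 0.95. Among these 4, Hspb11 stayed near 0, at -0.10 and -0.05. The medians of the other lists were -0.32 to 0.34 after SCL and -0.41 to 0.42 after ECL, beside 0.01 and -0.01 over all genes tested. Cryab, the gene of alpha B-crystallin, had 2949, 4072, 2484, 2882 and 3394 normalized counts in controls, 8912, 6685, 9915 and 5561 after SCL and 8513, 7905, 4677 and 7681 after ECL. Every lesioned library exceeded every control. Its log2 fold change was 1.30 after SCL (SE 0.19, adjusted p = 0.00155, edgeR) and 1.20 after ECL (SE 0.19, adjusted p = 0.000655, edgeR). Hspb8, which works with Bag3 in selective autophagy, rose by 0.79 after both lesions (adjusted p = 0.00639 and 0.00371, edgeR), and Hspb6 rose by 1.11 after ECL.

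Of 22 J-domain genes tested, 6 fell and none rose after SCL, and 4 fell and 1 rose after ECL. Dnajc21, which takes part in ribosome assembly, fell by 1.25 after each lesion. Dnajb2, a neuronal J-domain protein, fell by 0.69 after SCL and 0.84 after ECL, and Dnajc1, a J-domain protein of the ER membrane, fell by 0.59 after SCL (adjusted p = 0.0114, edgeR). Of 20 co-chaperones of Hsp70 and Hsp90, 2 rose after SCL, and 5 rose and 4 fell after ECL. Hspbp1, a nucleotide exchange factor of Hsp70, rose by 1.06 and 1.20, and Ppp5c, a phosphatase that docks on Hsp90, by 1.34 and 1.78. The calls of these 2 genes after SCL were lost in 6 and 8 of 20 alternatives.

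Ptges3, the Hsp90 co-chaperone p23, fell by 1.74 after ECL, and St13, which stabilizes the client-bound Hsp70, fell by 1.83. Both had a wide spread in controls. Ptges3 had 26778, 17732, 12955, 57218 and 35118 normalized counts there and 7431 to 9584 after ECL. St13 had 11360 to 81282 in controls and 8315 to 14415 after ECL, with control replicate 4 highest for both genes. Both calls held in all 20 alternatives, which include leaving out that library.

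Of 10 mitochondrial chaperones and proteases, 4 rose and 1 fell after SCL, and 4 rose and 3 fell after ECL. Hscb, which serves iron-sulfur cluster assembly, rose by 1.30 and 1.29, the protease Clpp by 0.75 and 1.25 and the nucleotide exchange factor Grpel2 by 0.70 and 0.95. Of 14 genes of the TRiC chaperonin and prefoldin, which fold actin and tubulin, 2 rose after SCL and 3 after ECL and none fell. Pfdn1 rose by 1.13 (adjusted p = 0.00231, edgeR) and 1.29 (adjusted p = 0.000342, edgeR), Tcp1 by 0.45 and 0.46, and Pfdn5 by 0.56 after ECL. The calls of Tcp1 after SCL and Pfdn5 after ECL were lost in 6 and 8 of 20 alternatives.

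Among genes of the ER and the unfolded protein response, 24 of 27 were tested, and 4 rose and 3 fell after SCL, 6 rose and 1 fell after ECL. Xbp1, a transcription factor of that response, rose by 0.91 after SCL and 1.39 after ECL (adjusted p = 0.0217 and 0.000856, edgeR). Asns, asparagine synthetase, rose by 0.64 and 0.83. Sel1l, which serves the degradation of ER proteins, fell by 0.58 after SCL. The ER stress element was found in the promoter windows of Hspa5 and of 7 listed genes, among them Hsp90b1 and Calr, which fell after both lesions and after SCL respectively, and Dnajc3, which rose after ECL. The other 4, Canx, Creld2, Pdia6 and Syvn1, were called in neither comparison with control.

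In the list of heat shock factors 3 genes were tested, of which Hsf2 fell, while Hsf1 and Hsbp1, a heat shock factor binding protein, were not called. It had 1901, 1190.2, 1501, 4119 and 4005 normalized counts in controls, 865, 644, 373 and 814 after SCL and 266, 393, 460.2 and 418 after ECL. All lesioned libraries lay below all controls. Its log2 fold change was -1.91 after SCL (SE 0.38, adjusted p = 0.00493, edgeR) and -2.72 after ECL (SE 0.36, adjusted p = 0.000252, edgeR).

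**Figure D5:**
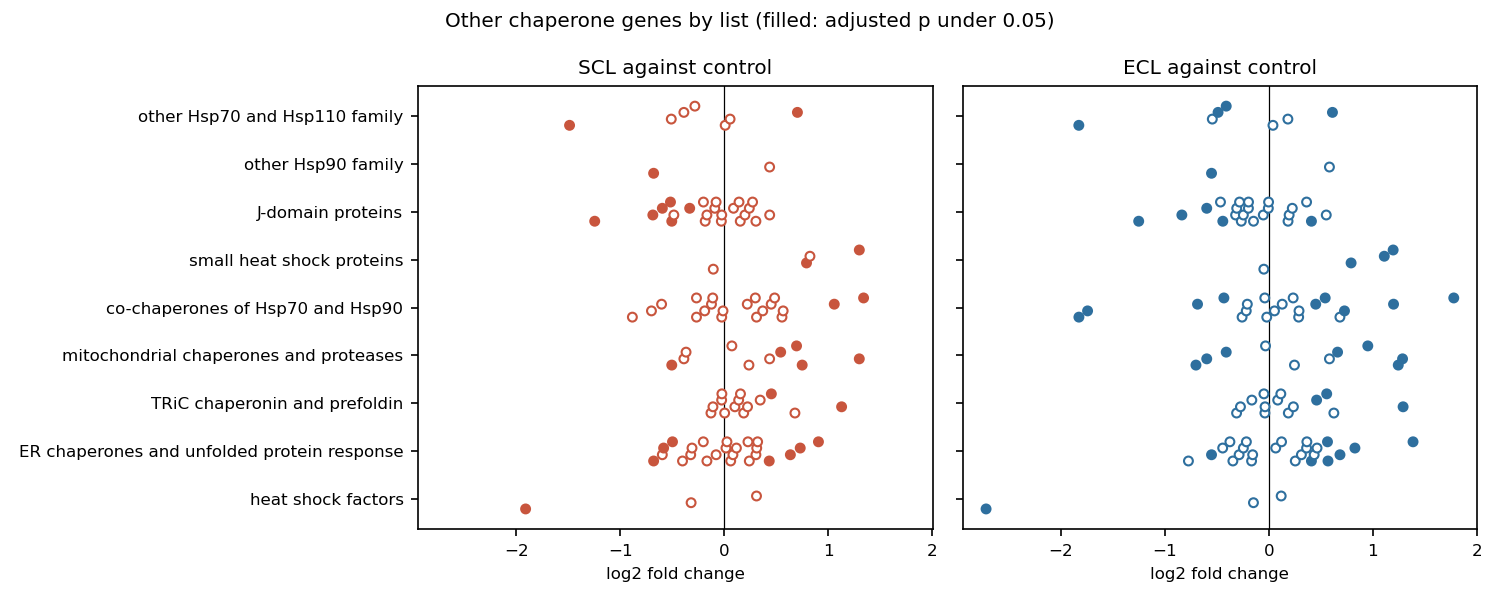
Log2 fold changes of the tested genes of 9 chaperone lists after SCL and after ECL against control, with 1 point per gene and filled points for an adjusted p under 0.05 from edgeR. Among the small heat shock proteins the filled points lie above 0, with Cryab at 1.30 and 1.20, and Hsf2 stands apart among the heat shock factors at -1.91 and -2.72.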

How the data were processed

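The deposited files hold raw counts per gene symbol, which the authors made with cutadapt 3.5, STAR 2.7.8a and featureCounts 2.0.1 on mm10 with GENCODE M25, without strand (tools per the submitters' processing notes). Counts from 1 to 20 were even in 63.0% to 74.3% of cases per library, so that both mates of a pair may have been counted. Groups and replicate numbers came from the sample titles. No batch or date is given. Nothing says whether cultures of a group came from separate animals, and p-values then measure only the spread between these samples.

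Each lesion was compared with control, and ECL with SCL, in a fit of its own with edgeR 4.0.16 (R 4.3.3, quasi-likelihood F test, two-sided). Genes entered with a mean normalized count (DESeq2 size factors of the fit) of at least 150, the minimum in the study's methods. TMM factors were taken over these genes and p-values adjusted by Benjamini-Hochberg over all of them. Ratios were compared by exact permutation tests (SciPy 1.17.1). On simulated data for SCL against control (11438 genes, 200 changed), 80.8% of 2-fold and 100% of 4-fold changes were recovered, and 4.09% of the calls were false. Each simulated gene had the spread typical of its mean count, and fewer genes changed than were called here. Changes under 2-fold, such as those of most members, were not simulated. Gene positions and shared stretches came from GENCODE M21 on GRCm38.

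The members and gene lists were chosen with earlier results of these data known. All members are named, with at most 2 called genes of smallest adjusted p per list and lesion, and the gene most like each member. Hspe1, Gm12346, Hsp25-ps1, Gm20481, Hsf1, Hsbp1, Calr, Dnajc3 and the other 4 genes with the ER stress element were named after their values were seen. Gm26825, which has no counts here, was named for its shared sequence. Alternatives were DESeq2 1.42.0, other scalings and filters, a length and GC offset, a sex term, a replicate block, a single fit, halved counts, summed copies and leaving out each library. A block by the heading number of each file, the Hspa1b over Hspa1a ratio and the 8-letter motif were added after seeing the data.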

Additional observations from a re-analysis of the deposited data

Results flagged for a closer look

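In 6 of 111 groups of 4 or 5 values examined, the highest or lowest library stood apart from the others by more than Dixon's 95% limit, where chance gives about 1 in 20. All 6 were normalized counts of a named gene. Among the members, Hspa1b had 182 normalized counts in ECL replicate 3, with 68.6 to 87.4 in the other 3 ECL libraries, and Hspa8 had 21926 in ECL replicate 1, with 12326 to 12570.2 in the others.

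In other chaperone genes, Hspa14 had 3101 normalized counts in ECL replicate 1 (others 1402 to 1603) and Dnajc1 had 995 in SCL replicate 1 (others 1223 to 1269.8). Dnajc21 had 3161 in control replicate 4 (others 1375 to 1797), and Tcp1 had 2366 in control replicate 3 (others 3296 to 3527). The cause of these values was not tested.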

How the results depend on the processing

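Hspa1b fell after both lesions under all alternatives computed. The number of members called after SCL, 2, was 1 with TMM over all symbols, DESeq2 size factors in edgeR, a mean minimum of 10 and the heading number as a block, 4 with the length and GC offset, and 1 to 3 with single libraries left out. After ECL, 1 member was called, against 2 with DESeq2, TMM over all symbols or no filter, 3 with the length and GC offset, and 1 to 2 with single libraries left out. The call added after ECL was Hsp90ab1, lower, with DESeq2, but Hspa8, higher, with TMM over all symbols or no filter. The call lost after SCL was that of Hsp90ab1. It was also lost with no filter, where Hspa8 was called higher instead. DESeq2 and the single fit added Hsp90aa1, lower, after SCL. The calls gained with the offset included Hspd1, at -0.35 after SCL and -0.45 after ECL. The cause was not tested.

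With the replicate number as a block, 1 member was called after SCL, and Hsp90ab1 had an adjusted p of 0.0714 (edgeR). Deviations of same-numbered libraries correlated at -0.13 to 0.23 between control and SCL. They correlated at -0.14 to 0.41 between control and ECL and -0.15 to 0.53 between SCL and ECL. In this order the medians were 0.058, -0.072 and 0.0022, beside 0.014, 0.034 and -0.027 for other pairs. By heading number they were -0.039, -0.042 and 0.13, beside 0.051, 0.041 and -0.13. With so few pairs, these values cannot show whether cultures of a number belong together. Over all genes the block gave 2336 calls after SCL and 2680.0 after ECL.

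Signs turned only for values that were not called. With the length and GC offset these were Hspb1 after SCL (-0.11) and ECL (-0.31), and, in ECL against SCL, Hspa1a (-0.019) and Hspa4 (0.041). With the sex term they were Hspb1 after ECL (-0.019) and Hspa1a in ECL against SCL (-0.31). With TMM over all symbols and with no filter they were Hspd1 after SCL (0.083), and Hsp90aa1 (0.030) and Dnajb1 (0.068 and 0.067) after ECL. With single libraries left out, Hspb1 ranged from -0.016 to 0.43 in the SCL comparison and from -0.043 to 0.29 in the ECL comparison. In ECL against SCL the ranges were -0.15 to 0.35 for Hspa1a, -0.082 to 0.032 for Hspa4, -0.21 to 0.28 for Hspa8, -0.30 to 0.15 for Hspb1 and -0.039 to 0.22 for Dnajb1.

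With single libraries left out, the exact permutation tests of the ratios to Hspa8 no longer passed after adjustment over 9 tests (adjusted p = 0.0536 to 0.171). Those of Hspa1b over Hspa1a, adjusted over 3, passed for both lesions (0.0268 to 0.0429). Fewer libraries allow fewer splits, and with 4 against 4 the smallest p of the permutation test is 0.0286. The adjustments also cover unlike numbers of tests, so that this contrast does not show which ratio is steadier. The Hspa1a and Hspa1b to Hspa8 difference was -1.97 to -1.32 after SCL, -1.80 to -1.15 after ECL and -0.19 to 0.48 between the lesions. Hspa5 over Hspa8 was -0.62 to -0.46 after SCL and -0.19 to 0.077 after ECL, and Hsp90aa1 over Hsp90ab1 was -0.0012 to 0.12 after SCL.

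Calls over all genes after SCL, 2848, were 5390 with no filter, 1824 with the heading number as a block and 1679 without SCL replicate 3. After ECL, 3114 became 8034 with no filter and 4854 with a mean minimum of 10. Between the lesions, 0 calls by edgeR became 62 with DESeq2, 217 with no filter and 54 without SCL replicate 3, with no member called in any of them. With DESeq2 size factors in edgeR, 64.0% of the genes called after SCL and 62.8% after ECL were higher.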
